A study of Mus musculus with 36 samples.

Results

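This comparison sets hearts after 6 weeks of Akt1 transgene induction against hearts after 2 weeks of induction. Hearts were chosen by their titles, as those under induction with no later repression: 3 hearts at 6 weeks and 4 hearts at 2 weeks. RNA of each of the 7 hearts was hybridised to a pair of Affymetrix chips, 430A and 430B, so they hold 14 of the 36 arrays of the series, which has 18 hearts in all. All mice are labelled as males of the Tet-myrAkt1/?MHC-tTA genotype. In such mice a myristoylated, constitutively active Akt1 is controlled by the tetracycline-regulated activator tTA, which is driven by the myosin heavy chain promoter of heart muscle cells (the first letter of that promoter is not legible in the labels). The 2-week hearts came from mice of 14 weeks and the 6-week hearts from mice of 18 weeks. A group of 4 hearts before induction, from mice of 12 weeks, carried both transgenes too and serves here as the background level. Age rose with the time of induction, so the effects of age and of longer induction cannot be told apart. Each array was made from an individual mouse. The drug that held the transgene off was not named in the sources used here, and no measure of heart size or function of these mice was used.

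Akt1 is a protein kinase switched on by insulin and growth factors. In heart muscle it promotes protein synthesis and cell growth through mTOR, and it holds FoxO transcription factors, which drive atrophy and autophagy genes, out of the nucleus. Short activation of Akt1 in the heart is known for growth with preserved function and longer activation for enlargement with failing function, and a growing heart depends on new capillaries, which angiogenic factors such as VEGF promote. The stages of failure are known for the return of fetal genes, for changes in the matrix around the cells, and for a loss of mitochondrial enzymes.

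The tissue label was checked against its markers. All 10 cardiomyocyte genes of a marker list were present, and their summed signal, divided by the trimmed mean signal of the chip, was 413 ± 80.9 at 6 weeks (SD, n = 3) and 464 ± 130 at 2 weeks (SD, n = 4), with overlapping hearts (two-sided exact permutation test, p = 0.686). One heart at 6 weeks, heart 3, stood apart in RNA quality: its signal at the 3′ end of Actb was 3.71 times that at the 5′ end on chip 430A and 4.20 times on chip 430B, where the 2-week hearts lay at 1.26 to 1.92 (chip 430A). A high ratio of this kind is a usual sign of shortened RNA or incomplete labelling. The signal of 18S ribosomal RNA was 101 ± 28.9 at 6 weeks (SD, n = 3) and 209 ± 59.3 at 2 weeks (SD, n = 4), with no overlap (two-sided exact permutation test, p = 0.0571, the smallest that 3 against 4 hearts allow). In the group before induction, hearts 3 and 4 had Xist signals of 2518 and 2170, against 4.4 to 92.8 in the other 16 hearts, although all are labelled male. Results that use those hearts were recomputed without both.

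The transgene was measured first. The Akt1 probe set on chip 430A that rose with induction gave signals of 2931, 2312 and 1851 in the 6-week hearts and of 1981, 2888, 3481 and 3164 in the 2-week hearts. These ranges overlapped. The mean before induction was 548 ± 69.7 (SD, n = 4), and the log2 difference from it was 2.27 at 2 weeks and 2.00 at 6 weeks. Between 6 and 2 weeks the log2 difference was -0.27 ± 0.17 (SE; adjusted p = 0.388), so a difference in transgene signal was not detected. The other Akt1 probe sets differed by -0.30 on chip 430A (adjusted p = 0.287) and 0.54 on chip 430B (adjusted p = 0.263), and which of the 3 match the transgene was not stated in the sources used here.

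Across both chips 1342 of 33084 tested probe sets (4.06%) were called at an adjusted p under 0.05, and 385 of these differed more than 2-fold. At 6 weeks 560 probe sets (1.69%) were higher and 782 (2.36%) were lower. On chip 430A 6.59% were called, 424 higher (2.72%) and 601 lower (3.86%), and on chip 430B 1.81%, 136 higher (0.776%) and 181 lower (1.03%). Counted with 1 probe set per gene, 758 of 14650 genes (5.17%) were called, 345 higher (2.35%) and 413 lower (2.82%), around a median log2 difference of -0.03. These shares of all genes are the background for every list count below. Members and lists were chosen with earlier results of these data known, so the counts describe the lists and are no test. The hearts of both groups did not overlap for 14.5% of all probe sets, and for 1252 of the 1342 called. A lack of overlap in called genes below is thus no result of its own. In RNA of whole hearts, fewer cells of a type and less RNA per cell cannot be told apart.

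The balance of higher and lower calls turned with median scaling and changed little with quantile normalization. With quantile normalization 44.8% of 927 calls on chip 430A and 42.5% of 327 on chip 430B were higher. Median signals were lower at 6 weeks (187 against 203 on chip 430A), and when arrays were scaled to a common median, 64.6% of the 755 calls on chip 430A and 60.4% of the 227 on chip 430B were higher, against 41.4% and 42.9% with the deposited scaling. The median difference of all probe sets was then 0.04 on both chips, where it was -0.06 (430A) and -0.03 (430B) with the deposited scaling. With the spread taken from these 7 hearts alone, 265 probe sets on chip 430A and 95 on chip 430B were called, of which 94.7% were also among the 1342. Of the 117 called probe sets that were named by rule, that smaller fit called 58, and none changed sign.

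**Figure D1:**
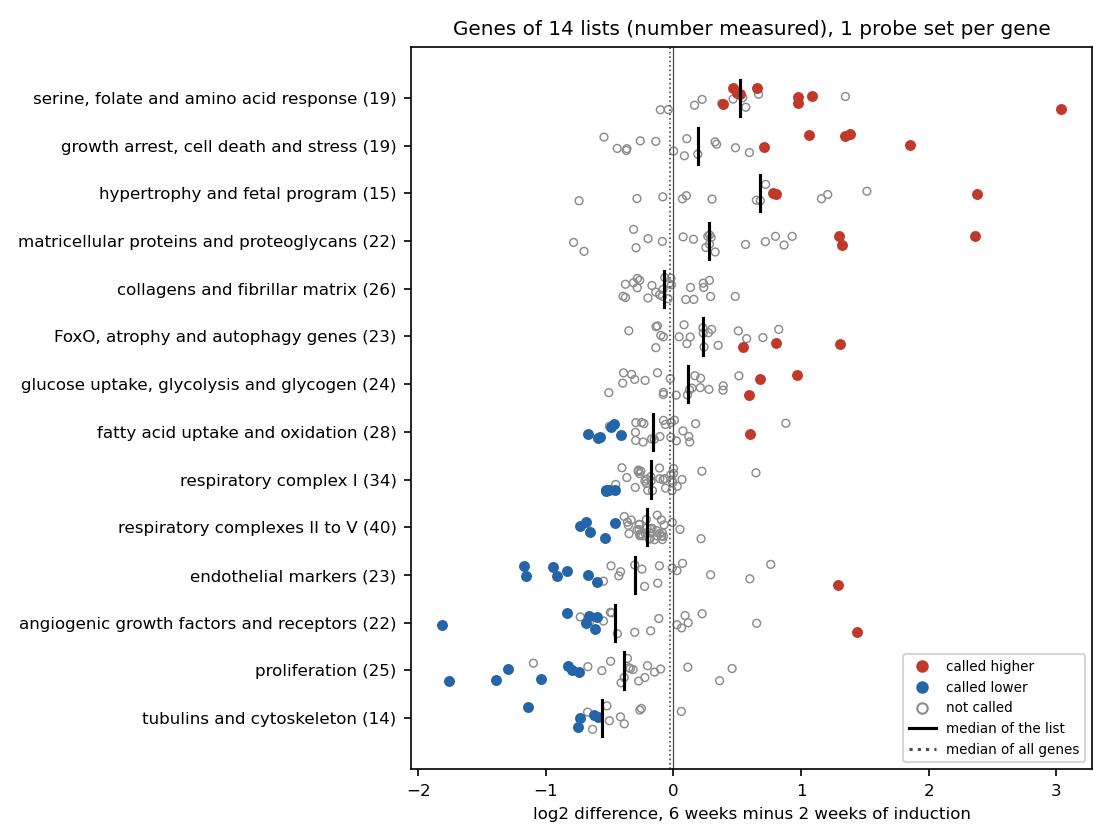
Log2 difference between 6 and 2 weeks of induction (x axis) for the genes of 14 lists, 1 point per gene, with filled points for genes called at an adjusted p under 0.05 and a bar at each list's median. Of the 19 amino acid genes 9 are called, all to the right of 0, while the 14 tubulin and cytoskeleton genes have a median of -0.56.

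Genes of serine, folate and amino acid supply were higher after longer induction. Of 19 measured genes on this list 9 were higher and none was lower, with a median log2 difference of 0.52, where 2.35% of all genes were higher and the median was -0.03. Mthfd2, the mitochondrial folate enzyme that is scarce in most adult tissues, gave 3876, 1120 and 1139 in the 6-week hearts and 185, 160, 145 and 169 in the 2-week hearts. The 2-week values lay at the level before induction (140 ± 25.1, SD, n = 4) and the 6-week values 12.4-fold higher than those at 2 weeks on average, or 6.85-fold without heart 1 at 6 weeks. The log2 difference was 3.04 ± 0.32 (SE; adjusted p = 2.15e-05), and heart 1 at 6 weeks was the highest of the 7. Slc3a2, the heavy chain shared by several amino acid transporters, gave 2252, 2246 and 1175 against 796 to 880, a log2 difference of 1.08 ± 0.19 (SE; adjusted p = 0.00239). Aars, which charges the alanine transfer RNA, gave 2604, 2098 and 2657 against 913 to 1586, a difference of 0.98 ± 0.16 (SE; adjusted p = 0.00157). Eprs, which charges transfer RNA with glutamate and proline, rose by 0.66 ± 0.14 (SE; adjusted p = 0.0097). None of these groups overlapped. The other called members were Asns (0.98), which makes asparagine, Shmt2 (0.52) of the serine to glycine step, Aldh18a1 (0.50) of proline synthesis, and the synthetase genes Gars (0.47) and Wars (0.39). For Asns heart 1 at 6 weeks (860) stood above the others at 6 weeks (325 and 366). Slc7a5, the light chain partner of Slc3a2, differed by 1.35 and Atf4, which encodes the transcription factor of the amino acid response, by 0.46, and neither passed the test. On this list 3 genes were called without heart 1 at 6 weeks, 5 without heart 2 or heart 3 at 2 weeks, 3 in the fit of 7 hearts alone, and 5 without the before-induction hearts 3 and 4. The call of Eprs was lost without heart 1 at 6 weeks (adjusted p = 0.051).

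The promoters of 3 of these genes are shown because Mthfd2 rose most and because Aars and Gars hold the letters TGATGNAAT, the core of the composite site that ATF4 is known to bind. RefSeq sequences (assembly GRCm38.p6) run from 250 bases before to 50 after the annotated start, 5′ to 3′ on the gene's strand. Capitals mark the ATF4 letters in Aars and Gars, where they run on the opposite strand, and the NFY letters CCAAT on either strand in Mthfd2. Mthfd2 lies at chr6:83317555-83317854 on the minus strand, Aars at chr8:111033592-111033891 on the plus strand and Gars at chr6:55037751-55038050 on the plus strand.
Mthfd2: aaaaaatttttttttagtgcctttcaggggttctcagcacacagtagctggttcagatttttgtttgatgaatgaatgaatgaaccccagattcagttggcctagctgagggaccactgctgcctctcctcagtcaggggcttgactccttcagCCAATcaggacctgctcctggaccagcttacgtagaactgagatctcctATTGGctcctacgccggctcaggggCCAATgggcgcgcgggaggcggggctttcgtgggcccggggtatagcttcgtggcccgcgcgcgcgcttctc
Aars: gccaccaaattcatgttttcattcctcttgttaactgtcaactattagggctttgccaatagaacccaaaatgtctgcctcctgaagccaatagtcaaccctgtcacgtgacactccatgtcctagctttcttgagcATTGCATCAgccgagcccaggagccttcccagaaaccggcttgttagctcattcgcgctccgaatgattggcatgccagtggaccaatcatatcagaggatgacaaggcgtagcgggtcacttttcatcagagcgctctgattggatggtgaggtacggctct
Gars: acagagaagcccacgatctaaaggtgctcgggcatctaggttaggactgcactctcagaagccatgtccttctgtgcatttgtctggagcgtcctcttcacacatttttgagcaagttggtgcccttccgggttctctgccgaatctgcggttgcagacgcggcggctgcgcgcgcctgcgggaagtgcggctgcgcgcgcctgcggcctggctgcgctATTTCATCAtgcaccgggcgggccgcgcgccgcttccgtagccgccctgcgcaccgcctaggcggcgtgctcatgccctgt
Of the 9 called genes 8 had a promoter in the table, and the ATF4 letters were found on either strand in 2 of the 8. Over all 14905 promoters of tested genes 0.564% held them, over the 503 promoters of genes with a probe set called higher 0.795%, and over the 630 of genes called lower 0.317%. CCAAT stood in the promoters of Aars and Mthfd2 and in 37.0% of all promoters of tested genes, with 37.0% among genes called higher and 37.1% among genes called lower. The FoxO letters GTAAACA stood in 2.78% of all, 1.59% of those called higher and 2.22% of those called lower.

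Growth arrest and stress genes were also higher. Of 19 measured genes 5 were higher and none was lower, with a median of 0.19, where 2.35% of all genes were higher. Cdkn1a, which encodes the cell cycle inhibitor p21, gave 4340, 3588 and 2320 at 6 weeks against 952, 948, 893 and 735 at 2 weeks, and 318 ± 112 before induction (SD, n = 4). The signal thus stood 3.87-fold higher at 6 than at 2 weeks, a log2 difference of 1.86 ± 0.22 (SE; adjusted p = 8.51e-05), after 1.38 above the level before induction at 2 weeks. Ddit4, an inhibitor of mTOR counted on the Akt and insulin list, gave 4856, 4636 and 2883 against 891, 824, 992 and 1221, and 507 ± 115 before induction (SD, n = 4). Its difference was 1.99 ± 0.23 (SE; adjusted p = 6.64e-05). For both genes every 6-week heart was above every 2-week heart, with heart 3 the lowest at 6 weeks. The stress sensor Gadd45g gave 1341, 685 and 614 against 217 to 323, a difference of 1.38 ± 0.25 (SE; adjusted p = 0.0027). Its relative Gadd45b rose by 1.06 and Gclm, a subunit of the enzyme that limits glutathione synthesis, by 1.34. For Gclm heart 3 at 6 weeks (1794) was the highest and the other hearts at 6 weeks gave 804 and 840. Bcl2l1, which protects against cell death, rose by 0.71. Without heart 1 at 6 weeks 3 genes of the list were called and Gadd45b was not (adjusted p = 0.053), and the fit of 7 hearts alone called 2. Of 21 unfolded protein response and chaperone genes none was called by limma and 5 had an unadjusted p under 0.05, with a median of 0.00 (log2), and without heart 3 at 6 weeks Herpud1 was higher and Hspa5 and Pdia6 were lower.

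**Figure D2:**
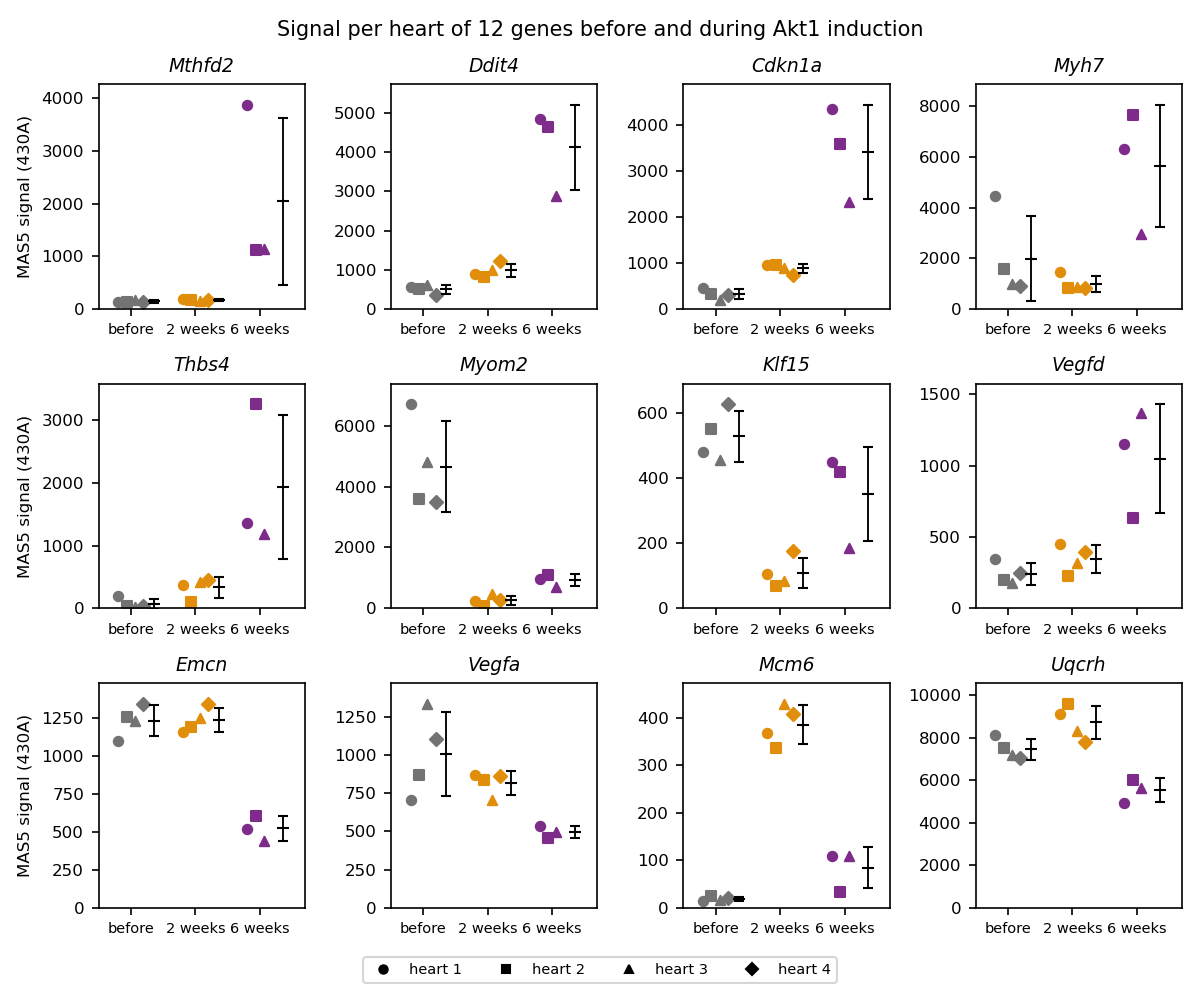
MAS5 signal on chip 430A (y axis, linear, from 0) of 12 genes in each heart before induction (n = 4) and after 2 weeks (n = 4) and 6 weeks (n = 3) of induction, with the mean and SD beside each group. For Mthfd2 the 2-week hearts (145 to 185) sit at the level before induction and the 6-week hearts (1120 to 3876) above it, while the 6-week hearts of Emcn (443 to 603) and Uqcrh (4933 to 6033) sit below both other groups.

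Among 15 genes of the hypertrophy and fetal program 3 were higher and none was lower, with a median of 0.68. Over all genes 2.35% were higher. Myh7, the slow myosin heavy chain of the fetal ventricle, gave 6316, 7636 and 2951 at 6 weeks and 1456, 843, 856 and 817 at 2 weeks. The groups did not overlap, and the log2 difference was 2.38 ± 0.49 (SE; adjusted p = 0.00719). Before induction the same probe set gave 1981 ± 1687 (SD, n = 4), so the spread between those 4 hearts was nearly as large as their mean. Xirp1, a repair protein of the intercalated disc, gave 3081, 2910 and 2898 against 1532 to 2217, a difference of 0.78 ± 0.16 (SE; adjusted p = 0.00748). Fhl1, a scaffold of the sarcomere, rose by 0.81 ± 0.17 (SE; adjusted p = 0.00879), a call lost without heart 1 at 6 weeks (adjusted p = 0.051). Both natriuretic peptide genes varied more between hearts than these. Nppa gave 11964, 12953 and 4572 against 4125, 1354, 6499 and 2469, with an overlap and a difference of 1.52 ± 0.73 (SE; adjusted p = 0.235). Nppb gave 3717, 6457 and 1830 against 2031, 1850, 1238 and 1252, a difference of 1.16 ± 0.41 (SE; adjusted p = 0.0982). It passed without heart 3 at 6 weeks (1.63, adjusted p = 0.024) and without the before-induction hearts 3 and 4 (adjusted p = 0.0449). Ankrd1, a stretch-responsive nuclear factor, differed by 0.65 (adjusted p = 0.254) on its brightest probe set, where heart 3 at 6 weeks had 4511 and the others 17064 and 13199. It differed by 1.22 without that heart (adjusted p = 0.0059), and its other probe set was called at 0.71. The skeletal actin gene Acta1 (-0.08, adjusted p = 0.899) and the adult myosin gene Myh6 (-0.29, adjusted p = 0.425) did not pass. On this list 2 genes were called without heart 1 at 6 weeks, and 5 without heart 2 or heart 3 at 6 weeks or without the before-induction hearts 3 and 4. Nppa is also made by atrial muscle. The summed level of 9 atrial markers, relative to the trimmed mean, was 26.6 ± 11.1 at 6 weeks (SD, n = 3) and 16.6 ± 12.3 at 2 weeks (SD, n = 4), but Nppa is 1 of the 9 and alone gave 19.7 and 7.22 of these means. Without Nppa the sum was 6.94 ± 4.58 at 6 weeks (SD, n = 3) and 9.37 ± 8.14 at 2 weeks (SD, n = 4), with overlapping hearts (two-sided exact permutation test, p = 0.743). Of the 8 markers that were tested, Nppa included, none was called by limma or had an unadjusted p under 0.05. Heart 3 was the highest of the 2-week hearts in Nppa and also in the sum without it (21.5), and the part of atrial tissue in Nppa was not tested.

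The adult sarcomere list held 23 measured genes, of which 3 were higher and none was lower, with a median of -0.06. Over all genes 2.35% were higher. Myom2, which links thick filaments at the M-band, gave 955, 1095 and 714 at 6 weeks, 246, 79.3, 459 and 275 at 2 weeks and 4649 ± 1497 before induction (SD, n = 4). It thus stood 1.76 ± 0.35 higher on the log2 scale at 6 than at 2 weeks (SE; adjusted p = 0.00564), and both times lay below the level before induction, by log2 differences of -2.24 and -4.01. Des, the muscle intermediate filament, gave 13144, 9628 and 11094 against 5790 to 7073, a difference of 0.83 ± 0.16 (SE; adjusted p = 0.00525). Cmya5, which sits at the costamere, rose by 0.77 ± 0.13 (SE; adjusted p = 0.0021). The genes of the contractile filaments themselves were spread closely around 0, such as Tnnt2 (-0.06), Actc1 (-0.04) and Ttn (-0.15), and the list's median was 0.05 with median scaling. Without heart 1 at 2 weeks Ldb3 and Synpo2l were called higher as well. Of 18 costamere and disc genes 2 were lower, Dsc2 of the desmosome (-0.91 ± 0.18, SE; adjusted p = 0.00589) and Tjp1 of the tight junction plaque (-0.69 ± 0.12, SE; adjusted p = 0.0026). Both calls held in all 19 alternatives. The gap junction gene Gja1 was not called on its brightest probe set (-0.37), while a dimmer one was called at -0.98.

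Of 18 calcium handling genes 1 was higher and none was lower. Atp2a2, the calcium pump of the sarcoplasmic reticulum, gave 24004, 18762 and 24460 at 6 weeks against 17672 to 36719, with a difference of -0.10 ± 0.19 (SE; adjusted p = 0.814). Pln, its inhibitor, differed by -0.32 ± 0.13 (SE; adjusted p = 0.138). In each of these genes a dimmer probe set was called at -0.83, so the probe sets of a gene did not give the same call. The called gene was Itpr2, a calcium release channel, at 0.87 ± 0.25 (SE; adjusted p = 0.0473), while its 5 other probe sets lay below 0 and were not called. That call was lost in 14 of 19 alternatives, among them the fits without heart 1 at 6 weeks (adjusted p = 0.18), heart 2 at 6 weeks (0.057), heart 3 at 6 weeks (0.068), heart 2 at 2 weeks (0.14) and heart 3 at 2 weeks (0.12), and without the before-induction hearts 3 and 4 (0.068). Of 17 ion channel genes 2 were lower, Abcc9 and Kcnj8, which encode both subunits of the vascular ATP-sensitive potassium channel and are described with the vessels.

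The fibrillar matrix and the proteins that sit on it were counted apart, and a difference between these lists was not tested. Of 26 collagen and fibrillar matrix genes none was called by limma and 2 had an unadjusted p under 0.05, with a median of -0.07 (0.03 with median scaling) and a range from -0.40 to 0.48. Col3a1 gave 6696, 9239 and 10207 against 7697 to 9710 (-0.07 ± 0.16, SE; adjusted p = 0.847), Col1a1 differed by 0.24 (adjusted p = 0.644), and Postn, a protein of the injury response, by -0.31 (adjusted p = 0.464). Postn was high at both times, 4054 to 6688 at 6 weeks and 4801 to 8089 at 2 weeks, against 695 ± 206 before induction (SD, n = 4). A dimmer Col3a1 probe set was called at -0.72. Of 22 matricellular proteins and proteoglycans 3 were higher and none was lower, with a median of 0.28, where 2.35% of all genes were higher. In the fit of 7 hearts alone 2 were higher. Thbs4, a thrombospondin of stressed muscle, gave 1353, 3247 and 1181 at 6 weeks against 375, 93.9, 422 and 454 at 2 weeks and 70.4 ± 79.1 before induction (SD, n = 4). Its difference was 2.36 ± 0.46 (SE; adjusted p = 0.00502), and every 6-week heart was above every 2-week heart. Ltbp2, a latent TGF-beta binding protein of microfibrils, gave 436, 876 and 512 against 195 to 212, a difference of 1.32 ± 0.22 (SE; adjusted p = 0.00186). Ccn2, the connective tissue growth factor, rose by 1.30 ± 0.32 (SE; adjusted p = 0.0206). The call of Ccn2 was lost without heart 1 (adjusted p = 0.085) or heart 2 (0.097) at 6 weeks and without heart 2 (0.065) or heart 3 (0.064) at 2 weeks. Without heart 2 at 6 weeks the proteoglycan genes Aspn and Lum were called lower.

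On the list of matrix proteases and their inhibitors Timp4 and Timp2 were higher and none of the other 15 was called, with a median of -0.05. Without heart 3 at 6 weeks the protease gene Mmp11 was called lower. Timp4, the inhibitor most restricted to the heart, gave 428, 538 and 554 against 146, 103, 155 and 199, a difference of 1.48 ± 0.26 (SE; adjusted p = 0.00225). The level before induction was 358 ± 185 (SD, n = 4). Timp2 gave 3029, 3192 and 3776 against 1708 to 2207, a difference of 0.84 ± 0.15 (SE; adjusted p = 0.00343). Of 18 TGF-beta and angiotensin genes 2 were higher and 1 was lower. In the fit of 7 hearts alone Tgfb2 was the 1 call, and without heart 3 at 6 weeks 4 were higher, with Osmr, Tgfb3 and Tgfbr1 added. The growth factor gene Tgfb2 gave 561, 670 and 503 against 202 to 328, a difference of 1.10 ± 0.22 (SE; adjusted p = 0.00719). Ace, which makes angiotensin II, rose by 0.75 (adjusted p = 0.0363) and Agtr1a, its receptor, fell by 0.68 (adjusted p = 0.0228). The call of Ace was lost without heart 2 at 6 weeks (adjusted p = 0.17), heart 3 at 6 weeks (0.068), or hearts 1, 2 or 3 at 2 weeks (0.077, 0.085 and 0.07). That of Agtr1a was lost without heart 1 or heart 2 at 6 weeks (0.065 and 0.084), without heart 2 or heart 3 at 2 weeks (0.068 and 0.067) and with median scaling (0.099). Summed fibroblast markers were 88.2 ± 7.26 at 6 weeks (SD, n = 3) and 81.7 ± 5.21 at 2 weeks (SD, n = 4), with overlapping hearts (two-sided exact permutation test, p = 0.343). None of 18 fibroblast marker genes was called by limma, and 5 had an unadjusted p under 0.05, while Lum and Meox1 were called lower without heart 2 at 6 weeks.

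Most called angiogenic factors and receptors were lower. Of 22 measured genes 6 were lower and 1 was higher, with a median of -0.46, where 2.82% of all genes were lower. Vegfa, the main growth factor of capillaries, gave 535, 459 and 498 at 6 weeks and 869, 838, 704 and 860 at 2 weeks, with 1004 ± 275 before induction (SD, n = 4). The 6-week hearts lay below all 2-week hearts, at a difference of -0.66 ± 0.16 (SE; adjusted p = 0.0194). Aplnr, the receptor of the vascular peptide apelin, gave 140, 244 and 490 against 996 to 1202 on its dimmer probe set, a difference of -1.86 ± 0.27 (SE; adjusted p = 0.000572). Its brightest probe set was called at -1.81, but there heart 3 at 6 weeks (5667) lay within the 2-week range of 4180 to 5690 and the others at 6 weeks at 396 and 899. Pdgfb, which recruits pericytes, fell by 0.69 (adjusted p = 0.0144) and Nrp1, a co-receptor of VEGF, by 0.61 (adjusted p = 0.0151). The other called members were the VEGF receptor gene Kdr (-0.84) and Apln (-0.60), the gene of the ligand of Aplnr. Vegfd, a VEGF of lymphatic and blood vessels, went the other way, with 1149, 631 and 1372 against 449, 228, 317 and 393 and a difference of 1.44 ± 0.24 (SE; adjusted p = 0.00171). All 3 of its probe sets were called higher. Angpt2, which loosens vessels, was under the signal minimum and was not tested. Its 6-week hearts gave 97.7, 51.4 and 24.4 and its 2-week hearts 30.8 to 77.4. Of the 6 lower genes 1 was called with median scaling, 2 in the fit of 7 hearts alone, 3 without heart 1 at 2 weeks, 2 without heart 2 at 6 weeks and 1 without heart 1 at 6 weeks. The call of Vegfa was lost without heart 2 at 6 weeks (adjusted p = 0.063), and those of Pdgfb (0.065 and 0.051) and Nrp1 (0.092 and 0.092) without heart 1 at 6 weeks and with median scaling.

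The marker genes of endothelium were lower in part. Of 23 measured genes 7 were lower and 1 was higher, with a median of -0.30, where 2.82% of all genes were lower. Emcn, a surface protein of capillary endothelium, gave 520, 603 and 443 at 6 weeks against 1156, 1192, 1250 and 1339 at 2 weeks, and 1232 ± 102 before induction (SD, n = 4). The 2-week hearts matched the level before induction (0.00 on the log2 scale), and the 6-week hearts were 2.36-fold lower than those at 2 weeks, by -1.17 ± 0.12 (SE; adjusted p = 2.15e-05). The adhesion molecule gene Icam2 gave 292, 522 and 622 against 1042 to 1188, a difference of -1.16 ± 0.21 (SE; adjusted p = 0.00342). Erg, a transcription factor of endothelial identity, gave 120, 122 and 100 against 217 to 248 on chip 430B, a difference of -0.94 ± 0.17 (SE; adjusted p = 0.00698). Cd34 fell by 0.67 (adjusted p = 0.00455), and Pecam1 (-0.91), Kdr (-0.84) and Sox18 (-0.60) were the other lower genes. Other defining genes of the endothelium did not pass, such as Cdh5 (-0.25), Flt1 (0.03) and Aqp1 (0.07), and Rgcc, a cell cycle regulator, was called higher at 1.29, a call lost without heart 1 or heart 2 of either group. Some genes outside the list that endothelium is known to express stood among the largest falls on chip 430A. They were picked from those falls, so they add nothing to the count of the list. Bcl6b, a transcriptional repressor, gave 37.5, 129 and 370 against 528 to 612 (-1.74 ± 0.37, SE; adjusted p = 0.00849), Meox2, a homeobox gene, was called at -1.50 and Nrarp, a Notch target, at -1.47. The summed level of the 23 markers was 69.3 ± 8.51 at 6 weeks (SD, n = 3) and 84.6 ± 5.17 at 2 weeks (SD, n = 4), with ranges of 61.9 to 78.6 and 76.8 to 87.6 (two-sided exact permutation test, p = 0.114). The part of a different share of endothelial cells in the vessel genes was not tested. With median scaling 5 of the 7 were called, in the fit of 7 hearts alone 3, and without heart 1 or heart 3 at 6 weeks 5.

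Genes listed for the vessel wall divided. Of 15 smooth muscle and pericyte genes 3 were lower and 2 higher. Abcc9, a regulatory part of ATP-sensitive potassium channels, gave 120, 222 and 160 at 6 weeks, 566, 758, 663 and 903 at 2 weeks and 1414 ± 181 before induction (SD, n = 4). It fell by 1.84 ± 0.17 from 2 to 6 weeks (SE; adjusted p = 1.16e-05), with no overlap between any of these groups. Kcnj8, the pore of the vascular channel, gave 340, 384 and 417 against 547 to 734, a difference of -0.62 ± 0.14 (SE; adjusted p = 0.0108). Which cells of the heart gave the Abcc9 signal was not tested. Mcam, an adhesion molecule of pericytes and endothelium, fell by 1.10 ± 0.22 (SE; adjusted p = 0.00552). Rgs5, the pericyte signalling gene, was called at -1.48 on a dim probe set and differed by 0.05 on its brightest. Cnn1, a calponin of contractile smooth muscle, gave 318, 250 and 438 against 43.6 to 111, a difference of 1.52 ± 0.33 (SE; adjusted p = 0.0097). Des, which heart muscle also makes, was the other higher gene. The summed level of these markers was 57.7 to 63.5 at 6 weeks against 46.2 to 51.4 (two-sided exact permutation test, p = 0.0571), and Des alone gave 22.6 and 12.6 of the means. Without Des the sum was 37.7 ± 4.01 at 6 weeks (SD, n = 3) and 35.8 ± 3.12 at 2 weeks (SD, n = 4), with overlapping hearts (p = 0.514 by the same exact test). In the fit of 7 hearts alone 1 gene of the list was lower and 3 were higher, with Mcam and Kcnj8 lost and the smooth muscle actin gene Acta2 added, and with median scaling 2 were lower and 3 higher. The call of Kcnj8 was lost without heart 1 at 6 weeks (adjusted p = 0.054) and with median scaling (0.058), and that of the dim Rgs5 probe set without heart 3 at 6 weeks (0.059). Summed macrophage markers were 22.1 ± 4.93 at 6 weeks (SD, n = 3) and 21.1 ± 0.561 at 2 weeks (SD, n = 4; two-sided exact permutation test, p = 0.971). None of the 19 tested macrophage and leukocyte genes was called by limma, and 2 had an unadjusted p under 0.05.

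**Figure D3:**
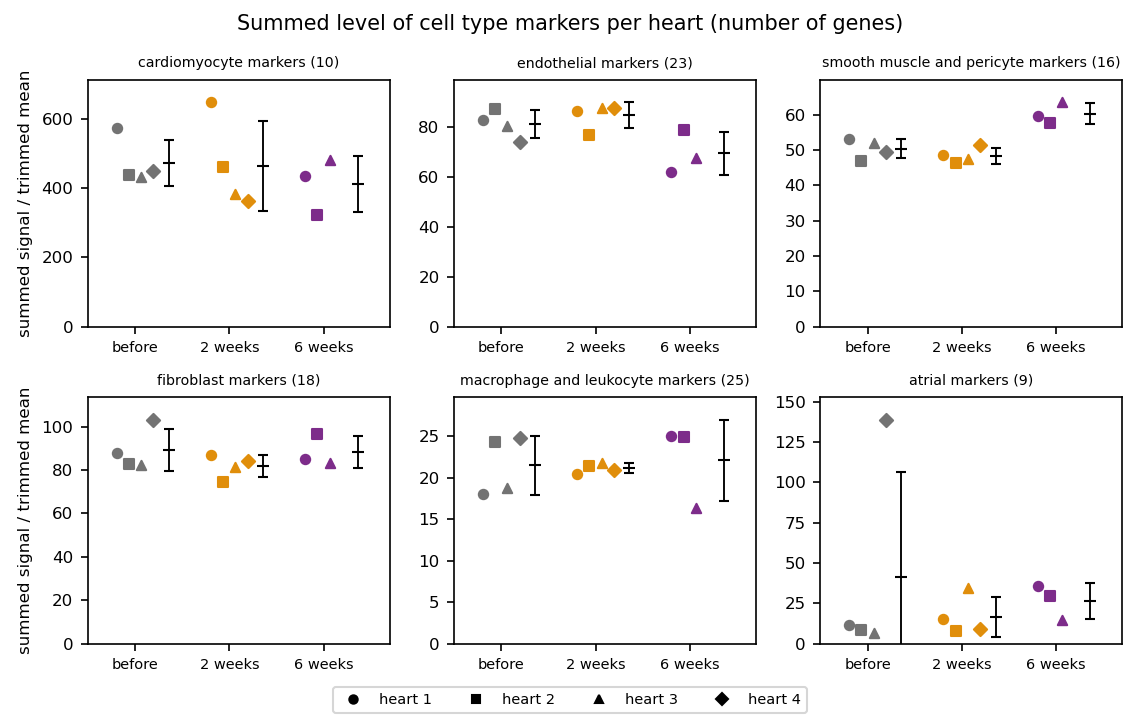
Summed MAS5 signal of each cell type's markers divided by the chip's trimmed mean (y axis, linear, from 0), per heart before induction (n = 4) and after 2 weeks (n = 4) and 6 weeks (n = 3) of induction, with mean and SD. The smooth muscle and pericyte markers, Des included, do not overlap between 6 weeks (57.7 to 63.5) and 2 weeks (46.2 to 51.4), the endothelial ones overlap slightly, and heart 4 before induction stands apart in atrial markers, which include Nppa.

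Cell cycle genes were lower at 6 weeks. Of 25 measured genes 7 were lower and none was higher, with a median of -0.39, where 2.82% of all genes were lower. Mcm6, a part of the helicase that opens DNA for replication, gave 109, 34.1 and 109 at 6 weeks, 369, 337, 430 and 409 at 2 weeks and 18.8 ± 4.7 before induction (SD, n = 4). It was 2.66 above the level before induction at 2 weeks and fell by 1.76 ± 0.32 from there to 6 weeks (SE; adjusted p = 0.00278). The proliferation marker Mki67 gave 59.4, 109 and 193 against 276 to 436, with 80.4 ± 26.1 before induction (SD, n = 4), a difference of -1.39 ± 0.33 (SE; adjusted p = 0.0146). The sliding clamp gene Pcna fell by 1.04 ± 0.16 (SE; adjusted p = 0.00103) and Ccna2, a cyclin of S phase, by 0.83 ± 0.18 (SE; adjusted p = 0.00897). Cdk1 (-1.30), Top2a (-0.80) and Mcm3 (-0.74) were the other called genes. In each of the 7 genes no 6-week heart reached the 2-week range, as was so for 1252 of all 1342 called probe sets. Which cells cycled is not shown by RNA of whole hearts. Without heart 1 at 6 weeks 2 of the 7 were called, and Mki67 (adjusted p = 0.084) and Ccna2 (0.05) were lost. Without heart 2 at 2 weeks or heart 2 at 6 weeks 4 were called, and 4 in the fit of 7 hearts alone. With the signal minimum raised to 50% of the trimmed mean 3 were called, but that setting leaves dim genes untested. None of the 102 named calls that it tested was lost.

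Of 14 tubulin and cytoskeleton genes 5 were lower and none was higher, with a median of -0.56, where 2.82% of all genes were lower. Tuba8, an alpha tubulin of muscle, gave 1299, 1729 and 1462 against 4139, 4588, 4021 and 1621, a difference of -1.14 ± 0.24 (SE; adjusted p = 0.00799). Heart 4 at 2 weeks thus lay within the 6-week range. The same heart was the lowest at 2 weeks for Tubb4b (4216 against 6482 to 6810 in the others) and Tubb5 (2621 against 3618 to 3893). Tubb4b fell by 0.75 (adjusted p = 0.0103) and Tubb5 by 0.59 (adjusted p = 0.0253). The cytoplasmic actin gene Actg1 gave 3976, 3893 and 3150 against 5645 to 6814, a difference of -0.73 ± 0.12 (SE; adjusted p = 0.00127), and Tuba1a (-0.63) was the other called gene. With median scaling 3 of the 5 were called, in the fit of 7 hearts alone 1, and without heart 1 at 6 weeks or hearts 1, 2 or 3 at 2 weeks 3. The call of Tubb5 was lost without heart 1 (adjusted p = 0.12) or heart 2 (0.055) at 6 weeks, without hearts 1, 2 or 3 at 2 weeks (0.057, 0.074 and 0.068) and with median scaling (0.11).

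Mitochondrial enzymes differed by small amounts, mostly downward. Of 34 complex I genes 4 were lower and none was higher (median -0.18), of 40 genes of complexes II to V 5 were lower and none was higher (median -0.21), and of 22 tricarboxylic acid cycle genes 3 were lower and none was higher (median -0.10). Among all genes 2.82% were lower. Uqcrh, a small part of complex III, gave 4933, 6033 and 5638 at 6 weeks against 9140, 9606, 8330 and 7827 at 2 weeks, and 7464 ± 496 before induction (SD, n = 4). The difference was -0.65 ± 0.11 (SE; adjusted p = 0.00242), with no overlap. The iron-sulfur protein gene Uqcrfs1 of the same complex fell by 0.53 (adjusted p = 0.0088), and the membrane anchors of complex II, Sdhc and Sdhd, fell by 0.68 (adjusted p = 0.00992) and 0.73 (adjusted p = 0.0188). Atp5l of the ATP synthase (-0.46) was the fifth. In complex I the called genes were Ndufa8 (-0.53), Ndufs4 (-0.53), Ndufb6 (-0.50) and Ndufs1 (-0.46), and in the cycle Suclg1 (-0.63), Suclg2 (-0.59) and Dlat (-0.53). Of 28 fatty acid genes 6 were lower and 1 was higher (median -0.16). Slc27a1, a fatty acid transporter, fell by 0.67, Etfdh, which passes electrons from fatty acid oxidation to the respiratory chain, by 0.58 and Eci1, an isomerase of the pathway, by 0.46. Echs1 (-0.59), Etfa (-0.49) and Cpt2 (-0.41) were the other lower genes. Acads, the short-chain dehydrogenase, rose by 0.60 ± 0.13 (SE; adjusted p = 0.00973). These calls moved with the scaling, and not in 1 direction. With quantile normalization 7 complex I, 9 complex II to V, 5 cycle and 6 fatty acid genes were lower, and 2 complex I genes were higher. With median scaling none of the complex I and cycle genes, 1 of complexes II to V and 1 of the lower fatty acid genes was called, and the medians were -0.07 for complex I, -0.10 for complexes II to V, -0.05 for the fatty acid genes and 0.01 for the cycle genes, the last with its sign turned. In the fit of 7 hearts alone 1 gene of complexes II to V was lower, and none of the complex I, cycle and fatty acid genes was called. For complex I none was called without heart 2 at 2 weeks or heart 2 at 6 weeks and 1 without heart 3 at 2 weeks. The lower fatty acid genes numbered 2 without heart 3 at 2 weeks and 3 without heart 2 at 2 weeks or heart 1 at 6 weeks, and those of complexes II to V 3 without heart 2 at 2 weeks and 8 without heart 4 at 2 weeks. Cycle genes numbered 1 without heart 3 at 6 weeks, where the call of Suclg2 was lost (adjusted p = 0.065), and 5 without heart 1 at 2 weeks. Uqcrh was called in each of the 19 alternatives. Sdhd was lost without heart 2 at 2 weeks (adjusted p = 0.067) or heart 3 at 6 weeks (0.088), and Eci1 without hearts 1 or 3 at 2 weeks (0.06 and 0.07) or hearts 1 or 2 at 6 weeks (0.052 and 0.088). Ppargc1a, a coactivator of mitochondrial genes, gave 534, 418 and 375 against 368 to 754 (-0.32 ± 0.18, SE; adjusted p = 0.334), and both times lay below the level before induction (1024 ± 111, SD, n = 4).

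Some regulators of metabolism were higher at 6 weeks. Of 17 regulators of mitochondrial genes Klf15 and Ppara were higher and none was lower. Klf15, a transcription factor of amino acid and lipid use in muscle, gave 449, 419 and 184 at 6 weeks, 104, 69.8, 84.1 and 176 at 2 weeks and 527 ± 77.0 before induction (SD, n = 4). The difference between 6 and 2 weeks was 1.30 ± 0.25 (SE; adjusted p = 0.00423). Against the hearts before induction it was -1.90 at 2 weeks (adjusted p = 4.46e-05) and -0.59 at 6 weeks (adjusted p = 0.0924). Heart 3 at 6 weeks lay only just above heart 4 at 2 weeks. Ppara, the receptor that drives fatty acid oxidation genes, gave 909, 610 and 526 against 400, 121, 382 and 274 and 890 ± 170 before induction (SD, n = 4), a difference of 1.15 ± 0.27 (SE; adjusted p = 0.0141). Its call was lost without heart 1 at 6 weeks (0.94, adjusted p = 0.081), and neither gene was called in the fit of 7 hearts alone (0.06 and 0.1).

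Where 2.35% of all genes were higher, 3 of 23 FoxO, atrophy and autophagy genes were higher and none was lower, with a median of 0.23. They were Klf15, Gabarapl1, which builds autophagosomes (1913, 1910 and 1490 against 748 to 1206, a difference of 0.80 ± 0.16, SE; adjusted p = 0.00689), and Bnip3, a receptor of mitophagy (0.54, adjusted p = 0.0144). Fbxo32, the muscle ubiquitin ligase atrogin-1, gave 946, 842 and 756 against 450 to 526 and 1729 ± 668 before induction (SD, n = 4). These groups did not overlap, but the difference of 0.70 ± 0.23 did not pass (SE; adjusted p = 0.08) on its brightest probe set and passed on a probe set of chip 430B (0.87, adjusted p = 0.0491). The call of Bnip3 was lost without heart 2 at 6 weeks (adjusted p = 0.063), and in the fit of 7 hearts alone none of the 3 was called and Fbxo32 was. Without heart 3 at 6 weeks Atg12 and Cited2 were called as well. Of 24 glucose genes 3 were higher and none was lower: the glycogen-targeting gene Ppp1r3c (0.97, adjusted p = 0.00828), the glucose transporter gene Slc2a1 (0.68, adjusted p = 0.0185) and Hk1 (0.59, adjusted p = 0.0151). Slc2a1 gave 300, 290 and 385 against 147 to 204 and 394 ± 72.7 before induction (SD, n = 4). Without heart 1 at 6 weeks 1 of the 3 was called, with Ppp1r3c (0.051) and Hk1 (0.08) lost, Slc2a1 was lost without heart 3 at 6 weeks (0.072) or heart 4 at 2 weeks (0.053), and none was called in the fit of 7 hearts alone. Creatine and adenylate kinase genes held 2 higher of 8, the creatine transporter gene Slc6a8 (0.77) and the mitochondrial kinase gene Ak4 (0.66), the latter lost without heart 3 at 2 weeks (0.055) or at 6 weeks (0.057). In the Akt and insulin list 3 of 26 were higher and none was lower: Ddit4, Pik3r1, the regulatory part of PI3-kinase (1.24 ± 0.29, SE; adjusted p = 0.014), and Gsk3a (0.46). Dimmer Pik3r1 probe sets of chip 430A were not called, at 1.35 (adjusted p = 0.0554) and 0.19 (adjusted p = 0.751). That on chip 430B was called at 0.69 (adjusted p = 0.0316). The first Pik3r1 call was lost without heart 1 at 6 weeks (0.075). Gsk3a was lost in 11 of 19 alternatives, among them each fit without one of the 2-week hearts (0.054 to 0.098) and without heart 2 (0.072) or heart 3 (0.17) at 6 weeks.

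The comparisons of 2 weeks and of 6 weeks with the hearts before induction share those hearts with each other and with the comparison above, so each is given only by its own values. They called 1658 (5.01%) and 4361 (13.2%) of 33084 probe sets. Both depended on the before-induction hearts 3 and 4. Without them the call changed for 20 of 132 named probe sets at 2 weeks and for 16 of 132 at 6 weeks. Among these were Ddit4, Ppargc1a and Pln at 2 weeks and Myh7 and Cmya5 at 6 weeks. At 2 weeks the log2 difference from before induction was -0.81 for Gabarapl1, -0.92 for Slc2a1, -0.94 for Timp4, -1.53 for Ppara and -1.62 for Fbxo32, all called, and each of these calls held without the before-induction hearts 3 and 4. At 6 weeks it was -0.00 for Gabarapl1, -0.24 for Slc2a1, 0.54 for Timp4 and -0.38 for Ppara, none of them called, and -0.92 for Fbxo32, which was. Other genes stood near the level before induction at 2 weeks and away from it at 6 weeks, such as Emcn (0.00 and -1.17), Erg (-0.17 and -1.11), Vegfa (-0.25 and -0.91) and Mthfd2 (0.18 and 3.22), each called at 6 weeks only. Mki67 (1.72 and 0.33) and Ccna2 (0.82 and -0.01) were called at 2 weeks and not at 6 weeks. Abcc9 (-0.93 and -2.77), Cdkn1a (1.38 and 3.24) and Thbs4 (1.71 and 4.08) were called in the same direction at both times, and of these calls that of Thbs4 at 2 weeks was lost without the before-induction hearts 3 and 4.

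**Figure D4:**
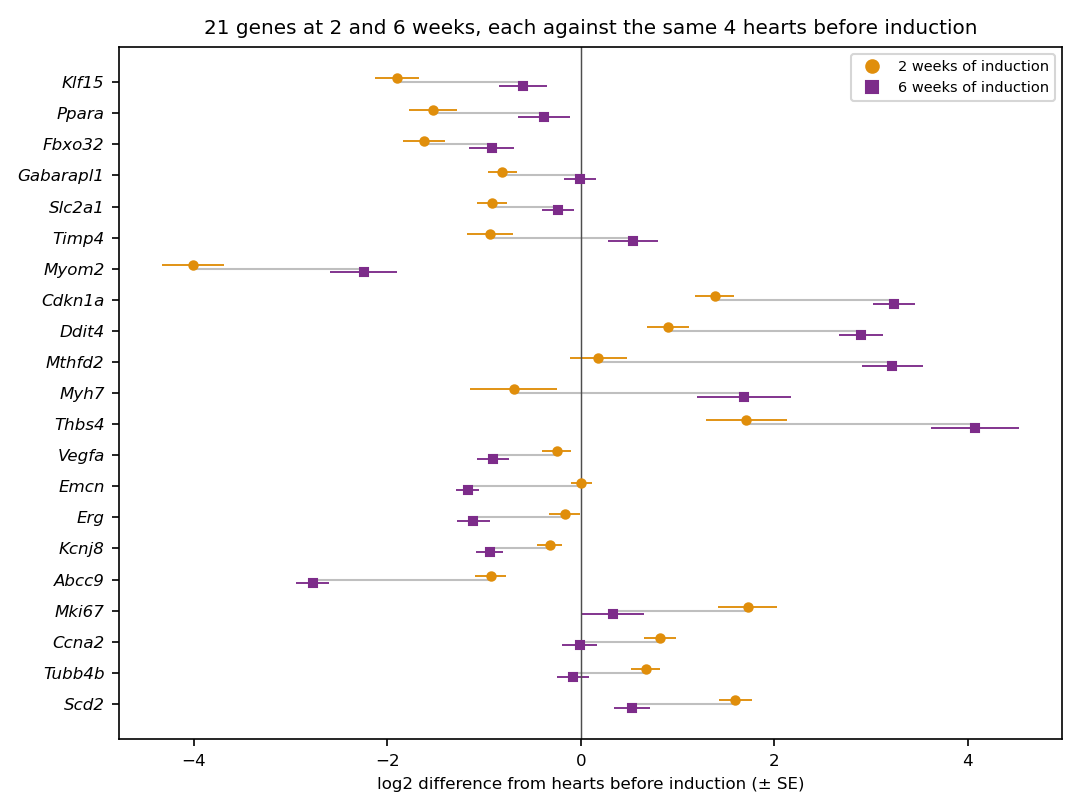
Log2 difference from the 4 hearts before induction (x axis, ± SE) of 21 genes at 2 weeks (circles) and 6 weeks (squares) of induction, both measured against the same 4 hearts. Klf15 lies at -1.90 and -0.59, Emcn at 0.00 and -1.17, and Cdkn1a at 1.38 and 3.24.

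Metallothioneins, small metal-binding proteins induced by metals and stress, were among the largest rises. Mt2 gave 8721, 9981 and 697 at 6 weeks against 428, 516, 601 and 420 at 2 weeks, a difference of 2.91 ± 0.53 (SE; adjusted p = 0.00337), and Mt1 11382, 11331 and 3720 against 2120 to 2972, a difference of 1.70 ± 0.27 (SE; adjusted p = 0.0012). Hearts 1 and 2 were far above the 2-week range, and heart 3, the heart with the high Actb ratio, lay just above it. Without heart 3 the difference of Mt2 was 4.13. The iron-binding Lcn2 gave 734, 759 and 178 against 97.5 to 214, with heart 3 inside the 2-week range (1.36, adjusted p = 0.0162), and its call was lost without heart 1 (0.095) or heart 2 (0.082) at 6 weeks. Tfrc, the transferrin receptor gene, fell by 0.82 (adjusted p = 0.0153), and was lost without heart 1 at 6 weeks (0.051), without heart 3 at 2 weeks (0.052) and with median scaling (0.084). Of 9 measured genes on this list 3 were higher and 1 was lower. In the fit of 7 hearts alone Mt1 was the 1 higher gene, and without heart 3 at 6 weeks 5 were higher, with Serpina3n and Socs3 added. The part of RNA quality in the values of heart 3 was not tested, and with the Actb ratio in the model Mt2 differed by 3.58.

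The remaining lists held few calls. Among lipogenic genes Scd2, a fatty acid desaturase gene, gave 743, 595 and 781 against 1243 to 1726 (-1.07 ± 0.19, SE; adjusted p = 0.00222), and Srebf1 fell by 0.64 (adjusted p = 0.0182), a call lost without heart 1 (0.067) or heart 2 (0.081) at 6 weeks and with median scaling (0.079). Of 18 translation genes 2 were lower, the nucleolar Npm1 (-0.53) and Fbl (-0.55), and 2 higher, the translation inhibitor gene Eif4ebp1 (0.61) and Ubtf (0.47). These 4 calls depended on the settings, and none was made in the fit of 7 hearts alone. Npm1 was lost without heart 1 at 6 weeks (adjusted p = 0.057) and Eif4ebp1 without heart 3 at 6 weeks (0.11) or heart 2 at 2 weeks (0.069). Fbl was lost without hearts 2, 3 or 4 at 2 weeks (0.091, 0.072 and 0.069) or hearts 2 or 3 at 6 weeks (0.052 and 0.11), and Ubtf without hearts 1, 3 or 4 at 2 weeks (0.066, 0.097 and 0.062) or hearts 1 or 3 at 6 weeks (0.1 and 0.069). The heat shock gene Hspb1 gave 20477, 15315 and 13235 against 7738 to 10229 (0.86 ± 0.16, SE; adjusted p = 0.00423) and was the 1 called gene of 16, while the mitochondrial chaperone genes Hspd1 and Hspe1 were called lower without heart 4 at 2 weeks. Of 32 proteasome genes 1 was called, the activator gene Psme1 (-0.66, adjusted p = 0.00516). Of 15 clock genes Per1 was higher (1.14, adjusted p = 0.00652) and Bhlhe40 lower (-0.72, adjusted p = 0.0337), the latter lost in 9 of 19 alternatives, among them each fit that left out 1 heart other than heart 2 at 6 weeks (0.05 to 0.15). The time of day at which hearts were taken was not stated in the sources used here. Immediate early genes held 2 calls of 17, Gadd45g and Zfp36 (0.92, adjusted p = 0.0449), the latter lost without the before-induction hearts 3 and 4 (0.066), without heart 1 (0.2) or heart 2 (0.17) at 6 weeks and without hearts 1, 2 or 3 at 2 weeks (0.066, 0.14 and 0.089). H2-Eb1 (-0.74) was the 1 called gene of 18 on the MHC and interferon list, lost without heart 1 (0.11) or heart 2 (0.16) at 6 weeks and hearts 2, 3 or 4 at 2 weeks (0.09, 0.12 and 0.068). It encodes a class II molecule. In the fit of 7 hearts alone Srebf1, Psme1, Bhlhe40, Zfp36 and H2-Eb1 were not called, nor were Ak4, Acads, Rgcc and Itpr2 of the lists above. With median scaling Bhlhe40, H2-Eb1, Itpr2, Npm1 and Fbl were not called.

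Genes with the largest differences also lay outside these groups. On chip 430A the rise of Ints6 came next after those of Mthfd2 and Mt2. It encodes a part of the integrator complex that processes small nuclear RNA. It gave 3928, 2656 and 4212 against 465 to 696 and 286 ± 64.5 before induction (SD, n = 4). The difference was 2.53 ± 0.21 (SE; adjusted p = 3.32e-06). Kcnj14, an inward rectifier potassium channel gene, gave 2872, 3267 and 2898 against 353 to 1220 (2.05 ± 0.40, SE; adjusted p = 0.00502). Fmo2, a flavin monooxygenase gene, gave 539, 924 and 733 against 79.6 to 201 and 520 ± 151 before induction (SD, n = 4), a difference of 2.04 ± 0.31 (SE; adjusted p = 0.000817). The motor protein gene Kif1c (2.21), the protease gene Bace2 (2.02) and the noncoding Snhg11 (1.83) were also among the largest rises, and Snhg11 was lost without heart 3 at 6 weeks (adjusted p = 0.057), its highest heart at 886. On chip 430B Zbtb16, a zinc finger repressor, gave 3128, 2858 and 2431 against 429 to 934 (2.02 ± 0.27, SE; adjusted p = 0.000983), and Fam107a, an actin-associated stress gene, 1028, 1839 and 447 against 153 to 240 (2.26 ± 0.32, SE; adjusted p = 0.00105). Enkur (2.15), Map7d2 (2.03), Gm19710 (2.23) and Eny2 (2.01) were the other large rises there, and the 4 probe sets of Eny2 on chip 430A, at -0.27 to 0.18, were not called. Gm19710 was lost without heart 1 (adjusted p = 0.12) or heart 3 (0.059) at 6 weeks and heart 2 at 2 weeks (0.051), and Eny2 without heart 1 at 6 weeks (0.052). These rises were named only from probe sets without overlap between the 6-week and 2-week hearts, so the lack of overlap is no result of its own.

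Among the largest falls Ttll1, which modifies tubulin, gave 292, 542 and 1408 against 1990 to 2536 and 4067 ± 427 before induction (SD, n = 4), a difference of -1.77 ± 0.29 (SE; adjusted p = 0.00157). D17H6S56E-5 fell by 1.91 (adjusted p = 0.000405). Ctnnb1, the gene of beta-catenin, was called at -1.45, and without heart 3 at 6 weeks, at 66.3 its lowest heart, the call was lost (adjusted p = 0.1), as it was without hearts 2, 3 or 4 at 2 weeks (0.078, 0.057 and 0.052). H2-D1 was called at -2.16 on a probe set of the kind that can share sequence with related MHC genes, while its brightest probe set differed by 1.73 and was not called, so its direction is uncertain. That call was also lost without heart 1 (0.083) or heart 2 (0.077) at 6 weeks and heart 2 (0.059) or heart 3 (0.064) at 2 weeks. On chip 430B Slc2a9, a urate transporter gene, gave 20.2, 17.2 and 18.7 against 101 to 164 (-2.33 ± 0.49, SE; adjusted p = 0.0202), and it was lost without heart 1 (0.065) or heart 2 (0.055) at 6 weeks and heart 2 at 2 weeks (0.052). Idh3b fell by 1.98 on a dim probe set of chip 430B and differed by 0.07 on its brightest. Both Nxpe4 (-2.15) and Enpp6 (-2.04) had 6-week signals from 3.7 to 133, and both were lost without heart 1 (0.094 and 0.052) or heart 2 (0.054 and 0.12) at 6 weeks, Enpp6 in each other fit without 1 heart as well (0.054 to 0.094). Ttc14 (-1.94), Tctex1d2 (-1.75) and, on chip 430A, Gm6607 (-1.44) kept their calls in each fit without 1 heart. For Brwd1, Cyb5r3 and Iars2 different probe sets were called in opposite directions, and no direction is given. Another probe set that was not called lay on the other side of 0 for Ace, Ak4, Gadd45b, Gclm, Hk1, Kif1c, Myom2, Slc27a1, Timp2, Ttll1, Tubb4b, Tubb5 and Ubtf.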

How the data were processed

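The series holds 18 mouse hearts, each with 1 array of the Affymetrix chip 430A and 1 of the chip 430B. The deposited values are intensities, linear signals per probe set made by the authors with MAS5 per the submitters' processing notes, and arrays of a chip share 1 trimmed mean (2% cut at each end): 500.2 on chip 430A and 122.5 on chip 430B. To each signal 10% of that trimmed mean was added before log2, probe sets with a mean under 20% of it were left out, and 15565 and 17519 remained. Differences are on this offset scale, which understates changes of dim probe sets. Group means of all 18 arrays of a chip, 5 groups, were fitted by lmFit and eBayes with trend (limma 3.58.1, R 4.3.3), with Benjamini-Hochberg adjustment within a chip, and an adjusted p under 0.05 was a call. Every adjusted p in the text is limma's. The fit was tested on simulated data. Values per heart were compared by two-sided exact permutation.

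Symbols came from the platform's annotation. A gene is represented by its brightest probe set, on chip 430A where possible. Members and lists were chosen with earlier results of these data known. Probe sets were named by rule: among called ones with 1 symbol and no overlap, the 12 largest rises and falls on chip 430A and 6 on chip 430B; up to 4 called genes per list; and a set of heart genes. Further genes complete a list's calls or were chosen after their values were seen. Promoters are RefSeq's, assembly GRCm38.p6. Alternatives were other offsets, filters, scalings, variance models, leaving out hearts, the Actb ratio as a covariate and a replicate block. Leaving Nppa or Des out of marker sums was chosen after seeing the data. The number of arrays limits precision, and no scan date or extraction batch was given in the sources used here.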

Additional observations from a re-analysis of the deposited data

Results flagged for a closer look

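In 12 of 140 groups of 4 hearts examined, 1 of the 2-week hearts stood apart from the other 3 by Dixon's criterion, which flags about 1 in 20 groups by chance. Heart 3 was the outlying heart for Gadd45g (216.7 against 307.5 to 323.0), Slc2a9 (101 against 154 to 164), Icam2 (1187.9 against 1042.3 to 1065.2), Mt1 (2972.4 against 2119.9 to 2260.8) and Timp2 (2206.8 against 1708.4 to 1747.9). Heart 1 stood above the others for Myh7 (1456.1 against 817.3 to 856.0), Xirp1 (2216.6 against 1532.3 to 1574.6) and Ttc14 (167.9 against 65.7 to 82.4). Heart 2 stood above the others for Bace2 (149.4 against 27.6 to 31.8) and Kif1c (301.1 against 16.0 to 39.9). Heart 4 stood below them for Tubb4b (4216.5 against 6481.6 to 6810.4). Probe sets of 18S rRNA averaged 297.0 on chip 430A in 1 of the 2-week hearts, and less in the other 3. Only the group of 4 hearts could be examined, since groups of 3 are too small.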

How the results depend on the processing

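With the spread from the 7 hearts alone 265 probe sets on chip 430A and 95 on chip 430B were called (135 and 51 higher), against 1025 and 317 over all 18, and without the variance trend 151 on chip 430B. Leaving out 1 heart in turn gave 568 to 1031 calls (430A) and 125 to 347 calls (430B), the fewest without heart 3 at 2 weeks (568) and heart 1 at 6 weeks (125). The counts also fell more than 1.5 times without heart 1 at 6 weeks on chip 430A (605), heart 2 at 6 weeks on chip 430B (192), and hearts 2 (602 and 128), 3 (171 on chip 430B) and 4 (177 on chip 430B) at 2 weeks, and the cause was not tested. Replicate numbers do not pair the hearts (correlations of same-numbered deviations from -0.156 to 0.0432), and with a replicate block 899 and 242 probe sets were called, with 6 hypertrophy genes higher in place of 3. The other alternatives (offsets, filters, median scaling, quantile normalization, array weights, the Actb ratio, and, chosen after seeing the data, leaving out the before-induction hearts 3 and 4) gave counts within 1.5 times. None of the 117 named calls changed sign, and 48 were called in every one of the 19 alternatives that tested them. With the signal minimum at 50% of the trimmed mean, 102 of the 117 were tested, and the others count as held there without a test. The fit with quantile normalization kept 111 of the 117, median scaling 93 and the 7 hearts alone 58.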

Other observations

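A further set of genes was chosen after values of these data were seen, and not all of its genes differed. Fkbp5, a chaperone of steroid receptors, gave 2456, 2664 and 801 at 6 weeks and 693 to 785 at 2 weeks, a log2 difference of 1.20 ± 0.28 (SE; adjusted p = 0.0148). Tsc22d3, a leucine zipper protein, gave 3574, 3954 and 2490 against 1017 to 1992, a difference of 1.20 ± 0.23 (SE; adjusted p = 0.00525). Not all probe sets of these genes were called, and the other probe sets of Tsc22d3 differed by 0.13 to 0.59. Glul, which makes glutamine, gave 3263, 2831 and 3080 against 1138 to 1375, a difference of 1.22 ± 0.12 (SE; adjusted p = 1.22e-05). The transcription factor gene Klf9 gave 2122, 3024 and 1932 against 797 to 1140 on the probe set with the lowest p of its 5. The difference there was 1.15 ± 0.16 (SE; adjusted p = 0.000378). Its brightest probe set was called at 0.73 (adjusted p = 0.0286) and a dim one at 1.07 (adjusted p = 0.0276). Those at 0.33 and -0.14 were not called (adjusted p = 0.388 and 0.839).

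Nfkbia, the inhibitor of NF-kappaB, gave 8922, 9004 and 5720 against 3454 to 4099, a difference of 1.01 ± 0.13 (SE; adjusted p = 0.000244). Dimmer Nfkbia probe sets of chip 430A were called at 1.00 and 1.22 and not called at 0.34 (adjusted p = 0.197). The one on chip 430B was not called at 0.61 (adjusted p = 0.189). Cebpd, a transcription factor of acute responses, rose by 1.45 (adjusted p = 0.0209) and Errfi1, an inhibitor of the EGF receptor, by 1.11 (adjusted p = 0.0424), but a dimmer probe set of each was not called, at 0.46 for Cebpd (adjusted p = 0.306) and -0.24 for Errfi1 (adjusted p = 0.797). For Fkbp5, Cebpd and Errfi1 hearts 1 and 2 at 6 weeks lay far above the 2-week hearts and heart 3 lay within or just above their range. Sgk1 (-0.17, adjusted p = 0.835), Dusp1 (-0.27, adjusted p = 0.543) and Pdk4 (0.88, adjusted p = 0.0776) did not pass. Nor did Angptl4 (0.77, adjusted p = 0.197) and Bcl6 (0.23, adjusted p = 0.621, on its brightest probe set).

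Of the 560 probe sets called higher, heart 3 at 6 weeks was the lowest of its group in 248 and the highest in 197, and of the 782 called lower it was the lowest in 355.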
